A study of Mus musculus with 9 samples.

Results

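Livers of mice given β-CYP together with sodium selenite (Na2SeO3) were compared with livers of mice given β-CYP alone. Both groups were Swiss mice aged 10 to 12 weeks that received β-CYP at 40 mg/kg, and they differed in selenite, given at 50 µg/kg to the selenite group only. Each group had 3 RNA sequencing libraries, which are 6 of the 9 in the series, and the other 3 came from untreated Swiss mice of the same age. All 25781 genes of the deposited table were taken, of which 20145 had a mean of at least 1 scaled count and were tested. The series' design text calls β-CYP alone the injury group and β-CYP with selenite the repair group, so the comparison asks what differs in the liver when selenite accompanies β-CYP. What β-CYP stands for, the sex of the mice and the route and time of dosing are not in the labels. Nothing in them shows that the 3 libraries of a group are from different animals. The spread behind each p-value is therefore that between libraries, and may be technical.

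Selenite is an inorganic source of selenium, which the liver builds into selenocysteine, the amino acid at the active site of glutathione peroxidases, thioredoxin reductases and deiodinases. The hepatocyte is also a secretory cell, and its endoplasmic reticulum (ER) folds albumin, clotting factors and acute phase proteins with chaperones such as Hspa5. When unfolded protein builds up, the sensors ATF6, IRE1 and PERK raise ER chaperones and, through ATF4, the genes of the integrated stress response. In the same cells amino acids are broken down, their nitrogen is fixed as urea, and drugs and bile acids are oxidized by cytochrome P450 enzymes.

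A scaled count is a read count divided by the size factor of its library, and differences are given as log2 differences of scaled count plus 1, selenite minus β-CYP alone, with the standard error of limma's linear model (n = 3 libraries per group). A gene passed when its limma p-value, adjusted by Benjamini-Hochberg over the 20145 genes, was below 0.05. The libraries of the compared groups held 32052250 to 36029560 reads. For genes of 100 to 1000 scaled counts, the coefficient of variation between the 3 libraries had a median of 7.89% in β-CYP and 8.05% in selenite. In all, 4805 genes passed (23.9% of those tested), 2337 higher (11.6%) and 2468 lower (12.3%) with selenite, and 690 (3.43%) and 437 (2.17%) of them differed at least 2-fold (5.59% in either direction). Scaling all libraries to equal totals instead raised the median difference of all genes by 0.12 and turned the split to 3238 higher and 1335 lower, so the call of genes with small differences depends on the scaling. The 3 libraries of the groups did not overlap for 7613 genes (37.8%). Counts for each gene list below stand against 11.6% higher and 12.3% lower over all genes. A list near those shares shows nothing particular to it. Reads of Alb, the albumin gene, made up 6.01% to 6.63% of the control libraries, 7.44% to 7.72% of the β-CYP libraries and 6.37% to 6.44% of the selenite libraries. The 10 most abundant genes took 25.1% of control replicate 2 against 18.6% and 18.8% of the other controls, which enter this comparison only through the estimate of the spread. The selenite libraries also held transcripts of exocrine pancreas and skeletal muscle, which are set apart near the end.

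**Figure D1:**
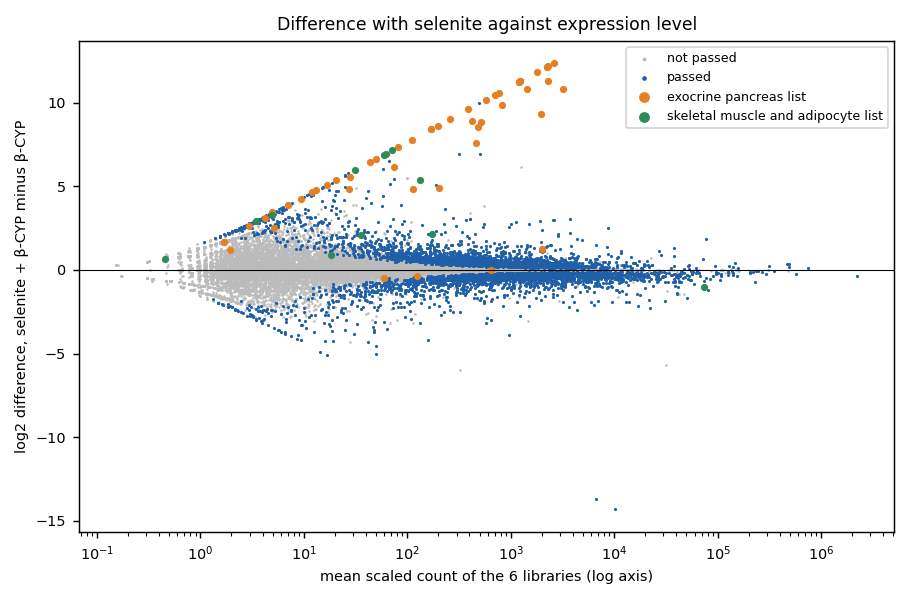
Log2 difference of selenite plus β-CYP minus β-CYP alone (vertical axis) against the mean scaled count of the 6 libraries (horizontal log axis) for the 20145 genes tested, with genes that passed in blue, members of the exocrine pancreas list in orange and of the skeletal muscle and adipocyte list in green. The pancreas transcripts stand apart at the top, with 45 of 52 higher in selenite. Of the 54 members in the table, 36 had 0 reads in every β-CYP library and could not be called lower.

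The folding machinery of the ER was higher with selenite across most of its genes. Of 39 tested genes for ER chaperones, folding and degradation of misfolded ER proteins, 30 rose and 2 fell with selenite, against 11.6% and 12.3% of all genes, and the median log2 difference was 0.47 against 0.02 for all genes. Summed over the 39 genes, the libraries held 273851 to 280752 scaled counts in β-CYP and 371942 to 387995 with selenite. The rises were led by Creld2, Syvn1, Hyou1, Manf, Hspa13 and Dnajb9, each at least 2-fold higher. Creld2, a secreted ER stress protein, had 1363, 1398 and 1238 scaled counts in the 3 β-CYP libraries and 6288, 5849 and 6101 in the 3 selenite libraries, a 4.56-fold rise (log2 difference 2.19 ± 0.050, limma adjusted p = 2.5e-09). Its untreated level of 3530.1 to 3674 lay between the groups, above every β-CYP library and below every selenite library. Hyou1, an ER nucleotide exchange factor and chaperone, showed the same order, with 3659, 3420.5 and 3459 in β-CYP, 7781 to 8120.4 in controls and 9496, 9963 and 9879 with selenite (1.48 ± 0.035). Manf, a secreted trophic factor kept in the ER, had 2092, 2110.5 and 2089 in β-CYP, 4025 to 4389.9 in controls and 5739, 5377 and 5703 with selenite (1.42 ± 0.040).

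Promoter sequences of these genes were searched for a known element, as a description with no test. ATF6 raises ER chaperones, so a list of them was likely to be rich in its element, and the shares below are no separate evidence. The ER stress element (ERSE), bound by ATF6 with NF-Y, was searched as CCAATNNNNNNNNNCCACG on both strands in the 250 bases upstream of the start site in the RefSeq table (GRCm38.p6). It was present in 9 of the 29 ER genes that matched the table (31.0%) and in 35 of all 27025 genes in it (0.130%), and in none of the 27 matched integrated stress response genes or the 15 matched heat shock genes. All 9 rose, with a median log2 difference of 0.62 and a range of 0.13 to 2.19, and 12 of the 20 ER genes without it rose, with a median of 0.36. Stretches from 6 of the 9 genes are shown because they span the strongest and the weakest rises among them, written in the direction of the gene, with the element in capitals (where it lies on the opposite strand, the capitals hold its reverse complement).
Creld2 (chr15:88819500-88819558, log2 difference 2.19): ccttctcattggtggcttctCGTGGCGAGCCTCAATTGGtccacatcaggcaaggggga
Syvn1 (chr19:6046512-6046570, log2 difference 1.77): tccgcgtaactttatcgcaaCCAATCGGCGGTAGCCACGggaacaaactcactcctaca
Hspa5 (chr2:34772005-34772063, log2 difference 1.15): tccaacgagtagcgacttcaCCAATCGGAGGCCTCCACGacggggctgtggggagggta
Hsp90b1 (chr10:86705618-86705676, log2 difference 0.82): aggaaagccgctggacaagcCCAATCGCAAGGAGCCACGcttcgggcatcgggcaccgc
Canx (chr11:50325780-50325838, log2 difference 0.17): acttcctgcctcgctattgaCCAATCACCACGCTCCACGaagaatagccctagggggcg
Pdia6 (chr12:17266471-17266529, log2 difference 0.13): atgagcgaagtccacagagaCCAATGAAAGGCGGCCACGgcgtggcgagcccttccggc
Creld2 and Pdia6 both carry the element, and their log2 differences lay at the top and the bottom of the 9. A match is a description of these letters and not of a bound site.

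Among the genes with this element, Hspa5 (BiP), the major ER Hsp70, had 18275, 13887 and 18518 scaled counts in β-CYP and 42091, 30197 and 40013 with selenite (1.15 ± 0.13, adjusted p = 1.7e-04). The second β-CYP and the second selenite library were both lowest of their group, and the groups still did not overlap. Hsp90b1, the ER Hsp90, had 27362, 27525 and 27638 in β-CYP and 49040.1, 48808 and 47877 with selenite (0.82 ± 0.019), above its untreated 42892 to 44426. Syvn1, the ubiquitin ligase that marks misfolded ER proteins, had 2431, 1695 and 2538 in β-CYP and 8147, 8316 and 6069.6 with selenite (1.77 ± 0.16). The lectin chaperones Canx and Calr and the disulfide isomerase Pdia6 rose by less, at 0.17 ± 0.026, 0.22 ± 0.018 and 0.13 ± 0.024. Herpud1, another ER degradation gene, carries the related element ERSE-II (found in 10 of the 27025 genes) and did not pass, at 0.13 ± 0.053.

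The 2 members that fell were Xbp1, the transcription factor that IRE1 activates by splicing, and the disulfide isomerase P4hb. Xbp1 had 9279, 8791 and 9680.2 in β-CYP and 8224, 7904 and 7736 with selenite (-0.22 ± 0.039), both above its untreated 5887 to 6071, and P4hb was at -0.05 ± 0.016, a call lost without any single library of the compared groups. Both calls were lost at equal totals and under quantile normalization, where P4hb lay at 0.08 and 0.20 and Xbp1 at -0.09 and 0.01, and where 32 and 34 of the ER genes were higher and 0 lower. The translocon subunit Sec61a1 rose (0.81 ± 0.027), whereas Sec61b (-0.07 ± 0.067), Os9 (-0.02 ± 0.041) and Ero1l (-0.03 ± 0.061) did not pass. Pancreas acinar cells are rich in the same chaperones, and acinar transcripts made up 0.217% to 0.221% of reads in the selenite libraries against 0.00613% to 0.00638% in β-CYP. Their part in the rise of the ER genes was not tested.

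**Figure D2:**
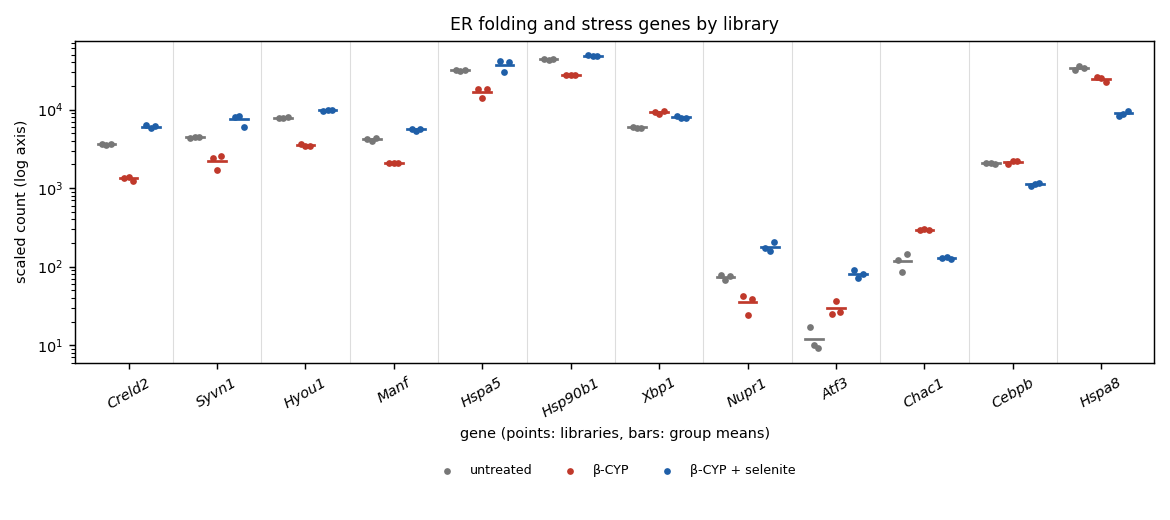
Scaled counts of 12 ER and stress genes in each library (vertical log axis), with 3 untreated, 3 β-CYP and 3 selenite plus β-CYP libraries per gene and a bar at each group's mean. Creld2, Hyou1 and Manf are lowest in β-CYP and highest with selenite, and Chac1 and Cebpb are lower with selenite than with β-CYP alone.

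The integrated stress response did not move as one group. Of 28 tested targets 8 rose and 4 fell (10 and 2 at equal totals), with a median log2 difference of 0.07. Nupr1, a stress-induced chromatin protein, had 42.6, 24.5 and 38.8 scaled counts in β-CYP and 172, 158 and 209 with selenite (2.34 ± 0.22, adjusted p = 4.1e-05). Psat1 and Psph, enzymes of serine synthesis, rose by 1.91 ± 0.39 and 1.09 ± 0.16, and the transcription factor Atf3 went from 25.0, 36.8 and 26.8 to 89.3, 71.0 and 81.5. Atf4 itself rose slightly (0.18 ± 0.038), and so did Ddit3, which encodes CHOP (0.36 ± 0.10), a call lost without any of 5 single libraries (each β-CYP library, selenite replicate 1 or 3). Chac1, which degrades glutathione, went the other way, with 296, 303 and 289 in β-CYP and 127, 134 and 126 with selenite (-1.20 ± 0.17), near its untreated 85.6 to 146. Cebpb, a liver transcription factor of the stress and acute phase responses, fell from 2015, 2227 and 2230.3 to 1077, 1135 and 1167. Asns, which makes asparagine (-0.14 ± 0.23), the hormone Fgf21 (-0.08 ± 0.49) and the cytokine Gdf15 (0.06 ± 0.15) did not pass.

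The composite element that CHOP and ATF4 bind, searched as TGATGNAA on both strands of the same upstream windows, was present in 9 of the 27 matched targets (33.3%) and in 3.91% of all genes. The list is one of ATF4 targets, so a high share was likely beforehand. Of the 9, Nupr1, Atf3 and Vldlr rose, Chac1 fell and the other 5 did not pass. The stretches of 4 are shown, with the element or its reverse complement in capitals, because genes that rose, fell or did not pass carry the same letters there.
Nupr1 (chr7:126625553-126625600, log2 difference 2.34): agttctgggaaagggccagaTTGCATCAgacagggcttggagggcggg
Atf3 (chr1:191183416-191183463, log2 difference 1.43): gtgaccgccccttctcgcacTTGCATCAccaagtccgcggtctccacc
Chac1 (chr2:119351029-119351076, log2 difference -1.20): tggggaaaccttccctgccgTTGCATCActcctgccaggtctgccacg
Fgf21 (chr7:45615602-45615649, log2 difference -0.08): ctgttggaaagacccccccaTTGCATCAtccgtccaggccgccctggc
All 4 hold the identical 8 letters, TTGCATCA, and of them Nupr1 and Atf3 rose, Chac1 fell and Fgf21 did not pass.

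The cytosolic aminoacyl-tRNA synthetases, which charge tRNAs and several of which ATF4 drives, rose in 12 of 22 genes and fell in 1 (16 and 0 at equal totals). Wars, Nars, Lars, Qars, Iars and Farsb led, with log2 differences of 0.70, 0.68, 0.60, 0.53, 0.50 and 0.49. Nars had 3150.5, 3228 and 3287 scaled counts in β-CYP and 5206, 5034 and 5200.4 with selenite, and the groups did not overlap. The exception was Aars, which fell from 7452, 7477 and 7388 to 6158, 6319 and 6384 (-0.24 ± 0.032). That call was lost at equal totals (-0.12) and under quantile normalization (-0.054).

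Heat shock chaperones of the cytosol and mitochondria split, with 7 of 20 higher and 7 lower (3 lower under equal totals). The small heat shock protein Hspb1 had 255, 237 and 281 scaled counts in β-CYP and 1732, 1689.8 and 1827 with selenite, a 6.79-fold rise (2.76 ± 0.078). The stress-inducible Hsp70 gene Hspa1a went from 185, 156 and 155 to 689.6, 758 and 743, although reads of Hspa1a and its near copy Hspa1b may not be told apart. The constitutive Hsp70, Hspa8, fell from 25936, 25459.6 and 22508 to 8387, 8829 and 9606 (-1.46 ± 0.069), to less than its untreated 31842 to 36270.0. Its partner Dnaja1 fell from 7579, 7629 and 7346 to 3578, 3844 and 3524. The mitochondrial chaperonins Hspe1 (0.59 ± 0.050) and Hspd1 (0.39 ± 0.028), which share 1 promoter stretch with a heat shock element (found in 0.514% of all genes), both rose. The regulator Hsf1 (0.07 ± 0.078) did not pass.

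Enzymes that break down amino acids fell together. Of 42 tested, 38 were lower and none higher with selenite, against 12.3% of all genes lower, with a median log2 difference of -0.56. At equal totals 32 were lower and 0 higher, and under quantile normalization 34 and 2. Tat, the first enzyme of tyrosine breakdown, had 58381, 57996 and 58136 scaled counts in β-CYP and 22022, 21849 and 22395 with selenite (-1.40 ± 0.018, adjusted p = 5.7e-11). The untreated level of Tat was higher than both, at 79824 to 82046, so the 3 groups stood apart in order. Got1, the cytosolic aspartate aminotransferase, showed the largest fall, from 4107, 5528 and 5605 to 1316, 1445 and 1306 (-1.89 ± 0.13). Cbs, which commits homocysteine to cysteine, fell from 15104, 14724 and 14715 to 6327, 6515 and 6518, and Kynu, of tryptophan breakdown, from 5561, 5716 and 5566 to 2792, 2829.9 and 2717. The proline enzyme Aldh4a1 (-0.97 ± 0.056) and the liver glutaminase Gls2 (-0.96 ± 0.029) fell as well. Csad (-0.04 ± 0.054), Gpt2 (-0.06 ± 0.020), Tha1 (-0.01 ± 0.15) and Sdsl (0.15 ± 0.082) did not pass.

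Urea cycle and ammonia genes followed, with 12 of 14 lower and 1 higher. Asl, which splits argininosuccinate, had 12015, 11509 and 11207 scaled counts in β-CYP and 5614, 5473 and 6114 with selenite (-1.01 ± 0.049). Ass1, the enzyme before it, went from 76205, 75537 and 75119 to 41701, 43174 and 42879.9. The entry enzyme Cps1 fell by much less, from 103104, 104944 and 104153 to 88889, 89254 and 88569 (-0.23 ± 0.014). Transport genes fell too, with the ornithine carrier Slc25a15 at -0.76 ± 0.035 and the amino acid importer Slc38a2 at -0.82 ± 0.033. Glutamine synthetase, Glul, which fixes ammonia in the hepatocytes around the central vein, was the 1 member that rose (0.16 ± 0.042), a call lost without any of 4 single libraries (β-CYP replicate 1 or 2, selenite replicate 2 or 3).

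**Figure D3:**
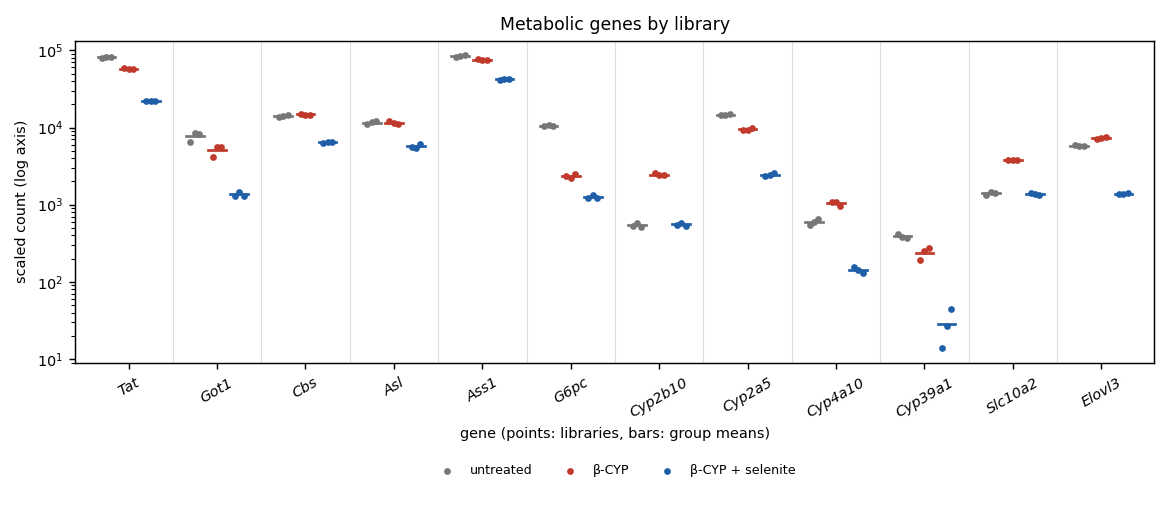
Scaled counts of 12 metabolic genes in each library (vertical log axis), with 3 untreated, 3 β-CYP and 3 selenite plus β-CYP libraries per gene and a bar at each group's mean. Tat, Got1, Cbs, Asl and the P450 genes Cyp2a5, Cyp4a10 and Cyp39a1 are lowest with selenite, whereas Cyp2b10 and Slc10a2 with selenite lie at the untreated level.

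G6pc and Pck1, genes of glucose release, fell. G6pc, the last step of glucose release, had 10317 to 10742 scaled counts in controls, 2372, 2226 and 2517 in β-CYP and 1203, 1334 and 1228 with selenite (-0.92 ± 0.053). Pck1, which feeds gluconeogenesis, fell from 52908, 52309 and 52347 to 31994, 31462 and 32163 (-0.72 ± 0.018), with controls at 103105 to 106537. Their activator Foxo1 fell (-0.57 ± 0.059), as did Igfbp1, an insulin-repressed secreted protein (-0.74 ± 0.089). Pklr, the pyruvate kinase of glycolysis (0.49 ± 0.026), the glucose transporter Slc2a2 (0.36 ± 0.024) and Irs1 (0.50 ± 0.15), an insulin receptor substrate, rose, the last a call lost without any of 5 single libraries of the compared groups. Fbp1 (0.05 ± 0.024) and Pcx (-0.04 ± 0.023) did not pass. In the whole list of 20, 4 rose and 7 fell, and 2 rose without β-CYP replicate 3.

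Genes that the nuclear receptors CAR and PXR induce were 2 higher and 23 lower of 37 (2 and 19 at equal totals, 1 higher without β-CYP replicate 1 or 2 or selenite replicate 1), and 10 of those that fell did so at least 2-fold. Cyp2b10, the classical CAR target, had 2566, 2409.7 and 2397 scaled counts in β-CYP and 553, 587 and 537 with selenite (-2.13 ± 0.063), close to its untreated 515 to 579. Cyp3a41a, a female-biased P450, went from 89.4, 82.7 and 79.5 to 0, 7.38 and 29.7 (-3.74 ± 0.96), a call lost without any single β-CYP library. Cyp3a13 went from 15250.0, 14906 and 15476 to 4159.6, 4033 and 4056, below its untreated 6812 to 7153. Cyp2a5, the coumarin hydroxylase, fell from 9397, 9166 and 9726 to 2343, 2456 and 2549.9, and the carboxylesterase Ces2a from 5908, 6063 and 5477 to 1962, 2038 and 2018. Alas1, the first enzyme of heme synthesis, fell from 3625, 3662 and 3469.8 to 1592, 1576 and 1607, and the receptors themselves, Nr1i3 (CAR, -0.57 ± 0.042) and Nr1i2 (PXR, -0.52 ± 0.045), fell too. The abundant PXR target Cyp3a11 did not pass (-0.05 ± 0.023), and Cyp3a25 rose from 8375, 8231 and 7669.9 to 14152, 13332 and 13368. Of 9 tested genes of the aryl hydrocarbon receptor, the receptor Ahr (-0.82 ± 0.069) and its target Cyp1a2 (-0.62 ± 0.021) fell and none rose. The sources used here do not say how reads shared by close P450 relatives were counted, so values of single Cyp2 and Cyp3 genes are uncertain.

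Bile acid genes were lower in 20 of 25 and higher in 2 (13 and 2 at equal totals). Cyp39a1, an oxysterol hydroxylase, had 193, 248 and 273 scaled counts in β-CYP and 13.8, 26.7 and 45.0 with selenite, an 8.34-fold fall (-3.15 ± 0.34, adjusted p = 1.0e-04). The bile acid importer Slc10a2 went from 3824, 3795 and 3787 to 1412, 1383 and 1327, level with its untreated 1345 to 1440.4. Slco1a4 (-1.35 ± 0.10), an organic anion importer, the sterol exporter subunit Abcg8 (-0.89 ± 0.049) and the steroid reductase Akr1d1 (-0.79 ± 0.048) fell. Cyp7b1, of the acidic route of bile acid synthesis, rose from 10256, 10976 and 10799.6 to 18442, 18439.6 and 17918, with controls at 22699 to 23054. Cyp7a1, the rate-limiting enzyme of the classical route, did not pass, with 906, 913 and 831 in β-CYP and 938, 816 and 796 with selenite, both far below its untreated 4768 to 4983.

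Targets of PPARA, the fatty acid receptor of the liver, and enzymes of fatty acid oxidation were lower in 21 of 35 and higher in 4 (13 and 5 at equal totals). The omega-hydroxylase genes led: Cyp4a14 had 283, 358 and 253 scaled counts in β-CYP and 11.05, 10.15 and 31.62 with selenite (-4.18 ± 0.36), and Cyp4a10 had 1069, 1095 and 953 in β-CYP and 154, 142 and 131 with selenite (-2.86 ± 0.095). Both were lower than in the controls, at 151 to 174 and 544 to 656. The fatty acid importer Cd36 also fell (-1.02 ± 0.089). Cpt1a, which brings fatty acids into mitochondria, fell by less, at -0.17 ± 0.025, and under quantile normalization it did not pass and lay slightly above 0. Ppara itself rose (0.32 ± 0.046), as did the thioesterase Acot4 (0.71 ± 0.080) and Plin2, a lipid droplet coat protein (0.41 ± 0.025). The rarer thioesterase Acot3 went from 3.12, 0 and 10.2 to 35.9, 24.9 and 16.3 (2.83 ± 0.79), a call lost without β-CYP replicate 1 or 2 and without any selenite library.

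In lipogenesis and desaturation, 2 of 21 rose and 9 fell (5 and 7 at equal totals). Elovl3, a fatty acid elongase, had 7125, 7219 and 7461 scaled counts in β-CYP and 1394, 1358 and 1429 with selenite, a 5.22-fold fall to below its untreated 5734 to 5898. The desaturases Fads2 (-1.07 ± 0.028) and Fads1 (-0.67 ± 0.023), the phosphatidate phosphatase Lpin1 (-0.99 ± 0.027), Thrsp (-0.80 ± 0.024) and the regulator Srebf1 (-0.70 ± 0.046) fell. Scd1, the stearoyl-CoA desaturase, rose from 55695, 56166 and 57378 to 87613, 90406 and 89849.6, and the fatty acid synthesis enzymes Fasn (0.12 ± 0.047) and Acaca (0.02 ± 0.031) did not pass. Cholesterol synthesis, which SREBP2 drives, rose in 15 of 25 genes and fell in 5 (3 without β-CYP replicate 3 or without selenite replicate 2, 2 at equal totals). Mvd (1.02 ± 0.089), Idi1 (0.73 ± 0.095), Sqle (0.68 ± 0.055) and Hmgcs1 (0.67 ± 0.054) led the rises. Nsdhl (-0.42 ± 0.040) and Sc5d (-0.39 ± 0.044), late steps of the same pathway, fell.

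Selenoproteins, which carry the selenocysteine built from selenium, moved little. Of 23 tested genes 3 rose and 9 fell, none past 2-fold, with a median log2 difference of -0.18, and at equal totals 4 rose and 4 fell. The 3 that rose were Selenon, an ER calcium regulator that went from 103, 75.6 and 84.1 to 166, 185 and 153 scaled counts (0.94 ± 0.17), and 2 genes of ER protein degradation that also stand in the ER list, Selenok (0.52 ± 0.059) and Selenos (0.38 ± 0.056). Msrb1, a methionine sulfoxide reductase, had 11878, 12206 and 11654 in β-CYP and 7370.1, 7273 and 7375 with selenite (-0.70 ± 0.026), the largest fall that passed. Selenow, a small redox protein, fell from 2283, 2240.2 and 2245 to 1488, 1519 and 1481 (-0.59 ± 0.035). Sephs2, which makes selenophosphate (-0.35 ± 0.021), the deiodinase Dio1 (-0.30 ± 0.035) and the lipid peroxidase Gpx4 (-0.24 ± 0.029) fell by less, and the falls of Dio1 and Gpx4 did not pass at equal totals. Txnrd1, the cytosolic thioredoxin reductase, also fell (-0.18 ± 0.042), a call lost at equal totals and without β-CYP replicate 3. Selenop, the plasma selenium carrier that the liver exports, had 162358, 164055 and 164824 in β-CYP and 159106, 156982 and 161605 with selenite and did not pass (-0.04 ± 0.018). Under TMM scaling and at equal medians Selenop passed as lower.

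Gpx1, the abundant cytosolic glutathione peroxidase, did not pass, and 1 library stood apart. Its scaled counts were 40648 to 48935 in controls, 37289, 45139 and 37321 in β-CYP and 35223, 3912 and 34018 with selenite, so that selenite replicate 2 lay far below every other library (-1.25 ± 0.69). Without that library the log2 difference was -0.20 (adjusted p = 0.238) and it still did not pass. Genes of selenium handling and selenocysteine insertion were 2 higher and 4 lower of 17 (3 and 0 at equal totals). These are 11.8% and 23.5%, against 11.6% and 12.3% of all genes, so the share of rises is that of genes at large. Selenbp2, a selenium-binding protein of the liver, rose from 21491, 21431 and 21518 to 55065, 53049.6 and 53461, above its untreated 30697 to 30874 (1.33 ± 0.019), while its relative Selenbp1 moved by -0.26 ± 0.030. Scly, which recovers selenium from selenocysteine, was at -0.18 ± 0.039. Reads of Selenbp1 and Selenbp2 may be shared.

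**Figure D4:**
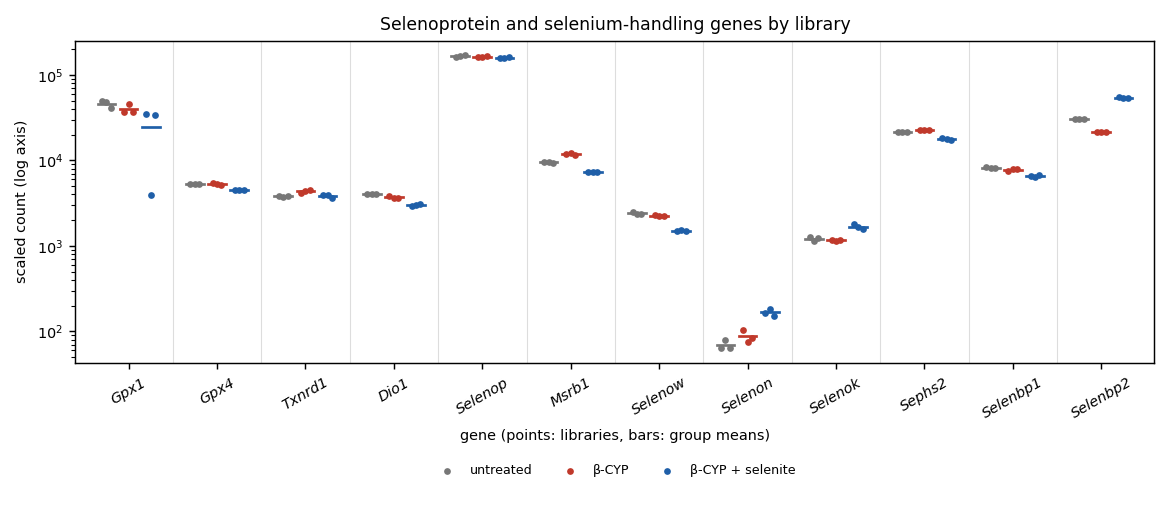
Scaled counts of 12 selenoprotein and selenium-handling genes in each library (vertical log axis), with 3 untreated, 3 β-CYP and 3 selenite plus β-CYP libraries per gene and a bar at each group's mean. Most groups lie close together, Selenbp2 is higher and Msrb1 lower with selenite, and Gpx1 is low in 1 selenite library.

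Oxidative stress genes gave no common rise. Of 40 genes of the pathway of the transcription factor NRF2 and of glutathione, 3 rose and 16 fell (4 and 8 at equal totals, 1 rise without β-CYP replicate 2). Srxn1, which repairs peroxiredoxins, rose from 898, 925 and 869.8 to 1911, 1593 and 2150.3 (1.06 ± 0.13), with controls at 753 to 1041. The transferases Gsta3 (-0.69 ± 0.028) and Gstm4 (-0.64 ± 0.049) and the carbonyl reductase Cbr1 (-0.69 ± 0.058) fell, and Nqo1 (-0.34 ± 0.26) and Hmox1 (0.01 ± 0.071) did not pass. Among 18 antioxidant enzymes 1 rose and 8 fell (1 and 3 at equal totals). Catalase, Cat, had 98963, 99732 and 101569 in β-CYP and 67372, 68405 and 69436 with selenite (-0.55 ± 0.018), Prdx6 was at -0.57 ± 0.089, and Glrx, a glutaredoxin, rose (0.34 ± 0.039).

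Acute phase proteins, the liver's secreted response to inflammation, divided. Of 30 tested 12 rose and 13 fell, with a median log2 difference of 0.00. A2m, a protease trap, had 42.6, 66.4 and 66.5 scaled counts in β-CYP and 379, 348 and 446 with selenite (2.74 ± 0.25), and Hamp, the iron hormone hepcidin, went from 7103, 7369 and 7195 to 15368, 16213 and 16208 (1.14 ± 0.028). The fibrinogen chains Fga (0.34 ± 0.015), Fgb (0.36 ± 0.017) and Fgg (0.25 ± 0.016) rose further above their untreated levels. Saa1, serum amyloid A, fell from 293787, 285732 and 279106 to 172690.0, 164517 and 173194, still above its untreated 45042 to 46792, whereas its close relative Saa2, with which it may share reads, did not pass (0.00 ± 0.027). Lcn2, a siderophore-binding protein, fell from 48484, 47651 and 48064 to 28557, 28631 and 29248, and Lbp, which binds bacterial lipopolysaccharide, from 18595, 16989 and 17442 to 9548, 9879 and 9472. Albumin, Alb, was at -0.38 ± 0.019, a call lost under quantile normalization. Its share of reads with selenite, 6.37% to 6.44%, lay within the 6.01% to 6.63% of the controls.

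Feedback genes of the IL-6, STAT3 and NF-κB pathways were mostly lower, 13 of 21, and 4 were higher (7 and 4 at equal totals). Socs3, the feedback inhibitor of STAT3, had 978, 939 and 1009 scaled counts in β-CYP and 603, 658 and 646 with selenite (-0.62 ± 0.075), and Stat3 fell from 7309, 7507 and 6882 to 5066, 5115 and 5491. Bcl3 (-1.03 ± 0.089), the kinase Pim3 (-1.09 ± 0.058) and Junb (-0.83 ± 0.048) fell further. Socs2, the feedback inhibitor of growth hormone signalling, rose from 23.9, 24.5 and 39.7 to 119.7, 146 and 125, below its untreated 232 to 245. Birc3 (1.09 ± 0.13) and Relb (0.72 ± 0.20), NF-κB targets, rose, and Relb did not pass without any of 4 single libraries (replicate 1 or 2 of either group).

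Chemokines and cytokines rose in 12 of 28 and fell in 3, but the count of rises was 5 without β-CYP replicate 2 and 7 without selenite replicate 2. Most were rare: Tnf had 2.08, 0 and 2.77 scaled counts in β-CYP and 12.0, 17.5 and 21.1 with selenite (2.94 ± 0.80), a call lost without any of 4 single libraries (β-CYP replicate 2 or any selenite library). Members with so few β-CYP reads could hardly be called lower. Ccl7 had 2, 0 and 0 reads in β-CYP and 12, 9 and 7 with selenite. Il10 had 0, 0 and 2 in β-CYP and 0, 7 and 7 with selenite. Both met the filter on the mean through their selenite reads. Cxcl10, an attractant of T cells, had 29.1, 53.1 and 26.8 in β-CYP and 118, 92.2 and 114 with selenite (1.60 ± 0.31). The B cell attractant Cxcl13 went from 77.0, 100.1 and 79.5 to 254, 193 and 285. Cxcl1, the neutrophil attractant that hepatocytes make, was an abundant member and one of the 3 that fell, from 4096, 4277 and 4079.9 to 1502, 1493 and 1497 (-1.47 ± 0.043). Of 32 interferon-stimulated genes 7 were higher, 6 lower and 19 did not pass. The guanylate-binding proteins Gbp4 (1.26 ± 0.17) and Gbp5 (1.15 ± 0.19) and the GTPase Igtp (0.70 ± 0.042) led the rises. Ifit1 (-0.64 ± 0.092), Ifi27 (-0.65 ± 0.070) and the transcription factor Irf7 (-0.59 ± 0.10) fell.

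Of the markers of resident macrophages, the scavenger receptors Cd163 and Marco and the co-receptor Cd14 rose at least 2-fold. In bulk liver, more cells of a type and more RNA per cell cannot be told apart. Of 20 Kupffer cell and macrophage markers 11 rose and 0 fell (15 and 0 at equal totals), with a median of 0.21. Cd163, the hemoglobin scavenger receptor, had 153, 142 and 161 scaled counts in β-CYP and 868, 950.1 and 934 with selenite (2.59 ± 0.074), above its untreated 436 to 455. Marco, a scavenger receptor, went from 151, 128 and 166 to 615, 588 and 599.9, and Cd14, the lipopolysaccharide co-receptor, from 159, 145 and 146 to 479.7, 514 and 526. The Kupffer cell identity genes Clec4f (0.21 ± 0.046), Cd5l (0.21 ± 0.036) and Vsig4 (0.21 ± 0.043) rose by far less, and Timd4 (0.11 ± 0.10) and Adgre1 (0.16 ± 0.074) did not pass. Itgam, an integrin of myeloid cells named after its values were seen, has 2 entries in the table. The entry counted in the list had 68.6, 74.5 and 102.6 scaled counts in β-CYP and 155.6, 3.69 and 0 with selenite and did not pass, but was lower without selenite replicate 1. The other, with 27.0, 22.5 and 41.6 in β-CYP and 58.0, 182.6 and 207.9 with selenite, was higher (2.11 ± 0.46).

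Class II antigen presentation rose in 6 of 12 genes and fell in 0. Cd74, the invariant chain, had 2623, 2443 and 2390.2 scaled counts in β-CYP and 4950.5, 5125 and 5209 with selenite (1.04 ± 0.045), both above its untreated 1619 to 1711. H2-Eb1 (1.42 ± 0.066), H2-Aa (1.10 ± 0.087) and H2-Ab1 (0.62 ± 0.071) rose, and so did their activator Ciita, from 19.8, 26.5 and 20.3 to 91.1, 84.9 and 70.0. Of 24 lymphocyte and plasma cell markers 5 rose, Ptprc, a gene of all leukocytes (0.53 ± 0.088), and the 4 rare transcripts Cd3g, Ms4a1, Gzmb and Gzma. The count of rises was 2 without selenite replicate 2 or without selenite replicate 3, and 3 without β-CYP replicate 2. Ms4a1 had 0 reads in every β-CYP library and could not be called lower. Gzma, a granule protease, had 0, 0 and 4.62 scaled counts in β-CYP and 21.2, 14.8 and 12.5 with selenite (3.24 ± 0.92), a call lost without β-CYP replicate 1 or 2 or without any selenite library, while the plasma cell transcripts Igkc (-0.22 ± 0.096) and Jchain (-0.25 ± 0.26) did not pass. Of 13 neutrophil markers Csf3r alone passed (0.53 ± 0.17), a call lost without β-CYP replicate 2 or 3 or selenite replicate 2 or 3, and S100a8 (0.30 ± 0.25) and S100a9 (0.39 ± 0.23) did not. The share of neutrophil markers that rose, 7.69%, was below the 11.6% of all genes.

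Of 23 stellate cell and fibrosis genes 7 rose and 1 fell (12 and 0 at equal totals), among them Vim (0.87 ± 0.11), an intermediate filament, the receptor Pdgfrb (0.79 ± 0.081) and the basement membrane collagen Col4a1 (0.71 ± 0.084), while Acta2, the mark of activated stellate cells, did not pass (-0.22 ± 0.12). Sinusoidal endothelial markers were 3 higher and 4 lower of 15 (4 and 1 at equal totals). Their median log2 difference was -0.18, and 11 of the 15 lay below 0. The largest rise was that of the hyaluronan receptor Lyve1, from 257, 188 and 269 to 510.1, 530.4 and 545. Of 9 cholangiocyte markers, Spp1 (osteopontin) fell from 6598, 6291 and 6539 to 1709, 1677 and 1783, below its untreated 2143 to 2302, and the keratin Krt19 (-0.72 ± 0.26) and Epcam (0.20 ± 0.32) did not pass. Erythroid markers were 2 lower and 0 higher of 8 (1 lower at equal totals, 4 under TMM, 5 at equal medians, and 1 without β-CYP replicate 1 or 3, selenite replicate 1 or 2 or any control library), led by Alas2 (-0.48 ± 0.038). Hepatocyte markers were 2 higher and 13 lower of 19, but 2 and 4 at equal totals, and 2 and 6 under quantile normalization. Tat and the transcription factor Hnf4a, which fell from 26768, 25366 and 26969 to 16372, 16866 and 16965 (-0.66 ± 0.027), were the largest of them.

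Zonation genes fell on both sides of the lobule, with 12 of 16 periportal genes lower and 1 higher (7 and 3 under quantile normalization) and 11 of 20 pericentral genes lower and 1 higher (0 higher without β-CYP replicate 1 or 2 or selenite replicate 2 or 3). Periportal falls were led by Gls2, Sds, a serine dehydratase (-0.94 ± 0.028), Ass1 and Pck1, and Cdh1, the cell adhesion protein of portal hepatocytes, rose from 494, 593 and 495 to 1001, 936 and 884. Pericentral falls were led by Lect2 (-1.03 ± 0.052), Ahr and Cyp1a2, whereas the Wnt target Axin2 (0.10 ± 0.19) did not pass. Complement and coagulation genes were 1 higher and 19 lower of 32, but 2 and 8 at equal totals and 13 and 6 under quantile normalization, and 0 higher without β-CYP replicate 1 or 2 or selenite replicate 2. C9, the pore-forming complement protein, stood out from them, with 58164, 58664 and 59849.6 scaled counts in β-CYP and 21728, 21210.4 and 21000.1 with selenite (-1.47 ± 0.020).

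Genes of the growth hormone axis and of sex-biased expression were 4 higher and 14 lower of 29 (9 and 12 under quantile normalization). Mup21, a major urinary protein, rose from 2469, 2653 and 2652 to 15199.5, 14717 and 14219.5 (2.51 ± 0.052), while Mup20 fell from 70060.3, 80629 and 78834 to 24887, 22707 and 23594 (-1.69 ± 0.054), although reads may be shared within this gene family. The receptor Ghr (-0.53 ± 0.025) and the binding protein Igfals (-0.56 ± 0.040) fell further below their untreated levels, and Igf1 (-0.06 ± 0.021) did not pass. Of 21 clock genes 2 rose and 7 fell (9.5% and 33.3%, against 11.6% and 12.3% of all genes). Nfil3, a repressor of clock output, had 1375, 1365 and 1317 in β-CYP and 459, 497 and 494 with selenite (-1.48 ± 0.060), Per1 was at -0.81 ± 0.092 and Per2 at 0.58 ± 0.080, and Arntl (-0.25 ± 0.11), Clock (-0.24 ± 0.11) and Dbp (0.02 ± 0.039) did not pass. The labels used here give no time of day.

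Immediate early genes were 3 higher and 8 lower of 22 (1 higher without β-CYP replicate 2 or without selenite replicate 1 or 2). Their higher share of 13.6% was near the 11.6% of all genes, and their lower share was 36.4% against 12.3%. The rare member Egr2, with 0, 0 and 3 reads in β-CYP and 20, 12 and 8 with selenite, could hardly be called lower. Egr1, a growth-factor-induced transcription factor, had 329 to 359 scaled counts in controls, 966, 1045 and 1022 in β-CYP and 295, 309 and 306 with selenite (-1.73 ± 0.066), so that the selenite libraries stood slightly below the controls. Junb fell likewise, and Fos (-0.89 ± 0.52), Jun (0.18 ± 0.092) and Myc (0.21 ± 0.29) did not pass. Of 20 genes of p53 and growth arrest 0 rose and 7 fell, led by Gadd45g (-1.25 ± 0.12), Plk3 (-0.89 ± 0.060) and Btg2, which went from 712, 755 and 782 to 452, 404 and 374. The p53 regulator Mdm2 (0.02 ± 0.077) did not pass. The cell cycle inhibitor Cdkn1a had 385, 372 and 352 in β-CYP and 197, 248 and 252 with selenite, groups that did not overlap, and 17.1 to 76.6 in controls. It did not pass (-0.67 ± 0.43, limma adjusted p = 0.314), but did without control replicate 2 (0.0220), with the 6 compared libraries alone (0.0110) and with voom (0.0233). Of 28 cell cycle genes 1 rose and 7 fell (4 fell without β-CYP replicate 2). The 1 rise was lost without β-CYP replicate 1 or 2, any selenite library or control replicate 2 or 3. The replication helicase subunit Mcm5 went from 137, 129 and 139 to 50.6, 43.4 and 70.9, Mcm6 from 167, 163 and 172 to 80.1, 72.9 and 71.9, and the proliferation marker Mki67 from 165, 171 and 149 to 95.8, 86.7 and 64.2.

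Iron and heme genes were 7 higher and 8 lower of 24 (7 and 4 at equal totals). Tfrc, the transferrin receptor, fell from 985, 871 and 903 to 412, 393 and 416 (-1.17 ± 0.064), and Bmp6, the inducer of hepcidin, went from 46.8, 87.8 and 64.7 to 110.5, 140.2 and 148 (1.02 ± 0.24), a call lost without selenite replicate 3, beside the rise of Hamp given above. Of 10 metallothionein and zinc transport genes 1 rose and 4 fell (1 and 2 at equal totals). Mt1, a metal-binding protein, had 33922, 33502 and 33687 scaled counts in β-CYP and 33593, 34003 and 33784 with selenite (0.00 ± 0.018, not passed), above its untreated 6480.4 to 6542, whereas Mt2 fell from 32866, 33372 and 33467 to 26412, 26046 and 25251.

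Nuclear genes of oxidative phosphorylation were 0 higher and 18 lower of 30, but 1 and 3 at equal totals, and the largest fall that passed was that of Ndufv1 (-0.38 ± 0.083). Ribosomal proteins were 6 higher and 3 lower of 30 (15 and 3 at equal totals, 22 and 3 under quantile normalization, 3 higher without selenite replicate 2), and proteasome subunits 0 higher and 1 lower of 27 (7 and 0 at equal totals, 0 to 1 higher and 0 to 2 lower when a library was left out). Transcripts of the mitochondrial genome were 6 higher and 2 lower of 15 (7 and 0 at equal totals). The count of lower ones was 4 at equal medians and without selenite replicate 3 or control replicate 2, and 1 without any β-CYP library, selenite replicate 1 or 2 or control replicate 3. Of these, mt-Atp6 had 173161 to 183544 scaled counts in controls, 33820.0, 34891 and 34049.5 in β-CYP and 113486, 122751 and 129902 with selenite (1.83 ± 0.044), while mt-Atp8, which overlaps it, did not pass (-0.09 ± 0.033). Apolipoproteins and lipoprotein genes were 4 higher and 9 lower of 20 (5 and 3 at equal totals), with Apoa5, an activator of lipoprotein lipase, at 0.53 ± 0.075.

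**Figure D5:**
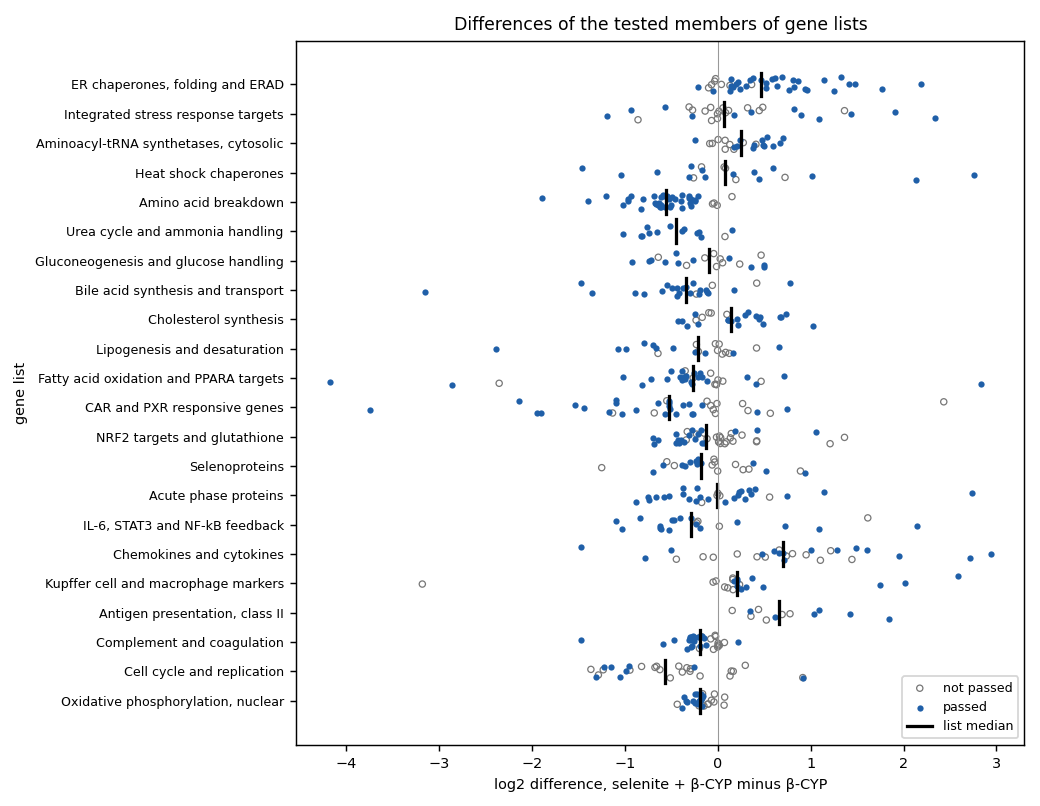
Log2 differences of selenite plus β-CYP minus β-CYP alone for the tested members of 22 gene lists (horizontal axis), 1 point per gene, filled where the gene passed, with the list median as a vertical bar. ER folding genes lie mostly to the right of 0, with a median of 0.47, and genes of amino acid breakdown to the left, with a median of -0.56.

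The largest single differences outside the pancreas list were those of genes read in 1 group only. Mup-ps19 and Mup13, members of the major urinary protein family, had 19487, 19386 and 21771 and 14096, 13608 and 12138 scaled counts in the 3 β-CYP libraries and 0 reads in every selenite library, at least 7216-fold and 4741-fold lower with 3 counts per library in place of 0. Both were present in the controls, at 19241 to 19843 and 18202 to 20781. In the other direction Gm10260, a predicted gene, had 0 reads in β-CYP, 2674, 2534 and 2554 scaled counts with selenite and 1535 to 1599 in controls, and Eno1b, a retrotransposed enolase copy, had 0 reads in β-CYP and in controls and 1577, 1569 and 1548 with selenite. H2-Ea-ps, an allele-dependent class II pseudogene, had 0 reads in β-CYP, 45.3 to 80.9 in controls and 1022, 960.2 and 979 with selenite. Copies and family members like these share sequence with other genes, so their values are uncertain. In all, 33 genes had 0 reads in 1 group and at least 50 in every library of the other, 31 of them read in selenite only, and 21 of those 31 belonged to the pancreas list and 4 to the muscle list.

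Among genes with reads in both groups, a mean of at least 50 scaled counts and no overlap of the groups, Ces2h, a carboxylesterase, rose from 9.36, 11.2 and 3.7 to 943, 1048 and 1047 scaled counts (6.91 ± 0.34), and Fam171b, a membrane protein, from 3.12, 5.11 and 4.62 to 625, 648 and 604 (6.91 ± 0.70). The controls lay near β-CYP, at 9.06 to 12.6 and 0 to 8.05. The largest falls among the same genes were those of Mid1-ps1 (-5.02 ± 1.11), Gspt2, a translation release factor (-4.56 ± 0.28), Cyp4a14, Mrap2, Capn3 (-3.53 ± 0.32), Asic5, Cyp39a1 and Apol10b (-3.14 ± 0.37). The call of Mid1-ps1 was lost when only the 6 compared libraries were fitted. Mrap2, a melanocortin receptor accessory protein, had 315 to 351 in controls, 1794, 1871 and 1789 in β-CYP and 144, 122 and 106 with selenite (-3.87 ± 0.10). Asic5, a bile-acid-sensitive ion channel, had 278 to 308 in controls, 1045, 1021 and 1019.5 in β-CYP and 129.8, 106 and 109 with selenite (-3.15 ± 0.093). Both were highest in β-CYP and below the controls with selenite.

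Transcripts of the exocrine pancreas were present in all 3 selenite libraries. Of 52 tested members 45 were higher and 0 lower, and their reads summed to 70974 to 73133 per selenite library, 2015 to 2210 per β-CYP library and 1154 to 1270 per control library. Of the 54 list members in the table, 36 had 0 reads in every β-CYP library. Such a gene can pass the filter through its selenite reads alone and cannot be called lower, so the count of 45 describes presence and is no test. Ctrb1, a chymotrypsinogen, had 7.28, 0 and 4.62 scaled counts in β-CYP and 6150.1, 6640.3 and 6626 with selenite, and Pnlip, the pancreatic lipase, had 0 reads in β-CYP and in controls and 5144, 5478 and 5151 with selenite, at least 1761-fold higher. The amylase copies Amy2a2, Amy2a3, Amy2a4 and Amy2a5, whose reads cannot be assigned singly, each lay between 4382 and 4701 in the selenite libraries. Bhlha15, the transcription factor of acinar cells, went from 7.28, 5.11 and 8.32 to 220.0, 219 and 222. With genes at 0 in β-CYP set to their bound, the median log2 difference of the list was 6.52, against 7.65 as fitted. Of 14 islet genes 9 were in the table, and they summed to 3 to 23 reads per selenite library. Among the genes of the exocrine list, Dmbt1, a mucosal scavenger protein, did not pass (0.01 ± 0.30), with 650.1, 634 and 649.8 scaled counts in β-CYP, 572, 712 and 667 with selenite and 3.02 to 10.3 in controls.

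Skeletal muscle transcripts appeared in the same 3 libraries. Myh1, a fast myosin heavy chain, had 0 reads in β-CYP and 132, 151 and 145 scaled counts with selenite. Tnnt3, a troponin, also had 0 reads in β-CYP, and it had 117, 103 and 150.4 with selenite. Ckm, the muscle creatine kinase, went from 0 to 136, 137 and 88.2. The calcium pump Atp2a1 and myoglobin, Mb, which are not in the list, had 0 reads in β-CYP too. Their selenite libraries held 152, 123 and 162 for Atp2a1 and 144, 137 and 135 for Mb. Together 6 muscle genes, Myh1, Tnnt3, Ckm, Tnnc2, Acta1 and Mylpf, summed to 792 to 853 reads per selenite library, 13 to 24 in β-CYP and 12 to 27 in controls. Of the whole list of muscle and adipocyte genes 9 of 12 rose and 1 fell, the exception being Car3, a carbonic anhydrase abundant in liver, which went from 99069.8, 98623 and 100017 to 49168, 50015 and 49678 (limma adjusted p = 1.3e-10). In this list 8 of the 13 genes had 0 reads in every β-CYP library and could not be called lower, so the count of rises is no test. The part of tissue beside the liver in the values of the other gene groups was not tested. With the pancreas and islet genes left out and the libraries rescaled, 4752 genes passed, 2288 higher and 2464 lower. Testis and spermatid transcripts summed to 0 to 5 reads per selenite library and 3 to 10 per β-CYP library, but to 316 to 387 per control library, and their part in the control values was not tested.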

How the data were processed

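RNA sequencing was done on 9 mouse liver libraries. The submitters' processing notes name the mm9 build with HISAT and Cufflinks, and the instrument is named in 2 ways in the labels (HiSeq and BGISEQ). The deposited values are log2, made by the authors as log2 of read count over a library's size factor plus 1: values scaled back gave whole reads for 100% of entries within 0.02, and the size factors matched the median of ratios of those reads in 9 of 9 libraries. The sources used here do not say how reads were assigned by strand, between overlapping genes or between close gene copies, so such genes are uncertain. Where 2 entries share a symbol, the entry with the higher mean was used.

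Genes with a mean of at least 1 scaled count were fitted in limma 3.58.1 (R 4.3.3) with 3 group means over all 9 libraries and an intensity trend (6 residual degrees of freedom), and the contrast was selenite plus β-CYP minus β-CYP. P-values were adjusted by Benjamini-Hochberg over the 20145 genes, with a threshold of 0.05. A gene at 0 reads in a group has a fold computed against 3 counts per library. The procedure was tested on simulated counts with the median spread of each expression level. It recovered 25 of 50 changes of 1.25-fold, 32 of 50 of 1.5-fold, 44 of 50 of 2-fold and 49 of 50 of 4-fold, and called 12 unchanged genes. A small change can therefore be missed. The simulation held 20176 genes, so a far smaller share was changed than passed in the data. These rates are therefore not the rates of recovery in this comparison. Alternatives were other scalings, pseudocounts of 0.1 and 10, other filters, 6 libraries, voom on recovered reads, no trend, a replicate block, pancreas genes removed, and each library left out.

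Named genes were the 10 largest rises and falls with a mean of at least 50 scaled counts over the 6 libraries and no overlap between the groups, up to 6 of the largest changes of each list with members that define it or did not pass, the most abundant pancreas transcripts, a fixed set of selenium and stress genes, and up to 3 genes in which 1 library lay over 4-fold apart. Gene lists, members and tests were chosen with earlier results of these data known. Promoter stretches are from the RefSeq table (GRCm38.p6), not from the authors' build. Replicate numbers are shared between groups in the labels.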

Additional observations from a re-analysis of the deposited data

How the results depend on the processing

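The count of genes past the threshold was 4805 and ran from 3897 without the intensity trend to 4924 with voom on recovered reads, and from 3989 to 4749 when single libraries were left out. At equal totals, 1335 genes were lower in place of 2468, and no gene passed in the opposite direction. Under quantile normalization 34 genes did. Of 215 named genes that passed, 187 passed under all 22 alternatives and 28 lost their call under at least 1. The call was lost under scaling alternatives for several small falls (Aars, Alb, Cps1, Cpt1a, Dio1, Gpx4, Mt2, Ndufv1, Scly, Selenbp1, Txnrd1, Xbp1). Quantile normalization turned the sign of Cpt1a (0.076), Cyp3a11 (0.19), Gpt2 (0.17), Igf1 (0.16), Os9 (0.17), P4hb (0.20), Pcx (0.18), Xbp1 (0.013) and mt-Atp8 (0.25), and equal totals that of P4hb (0.076). The cause was not tested. Of the named genes that did not pass, 7 did when 1 library was left out: Itgam (selenite replicate 1), Cdkn1a (control replicate 2), Krt19 (control replicate 3), Cyp3a11 (β-CYP replicate 1), Fasn (β-CYP replicate 2), Herpud1 (selenite replicate 2) and mt-Atp8 (selenite replicate 3). Same-numbered libraries of different groups had correlations of their deviations from -0.11 to 0.09, and differently numbered ones from -0.12 to 0.18. No pairing by number was seen, but 3 libraries per group cannot exclude one. With a replicate block 4481 genes passed, 2171 higher and 2310 lower.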

Other observations

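In 3 abundant genes, 1 selenite library lay more than 4-fold from the other 2 of its group. Gpx1 had 38258, 4241 and 35500 reads in the 3 selenite libraries, Pttg1ip, a binding partner of securin, had 5068, 1010 and 5307, and the predicted gene Gm21320 had 0, 25164 and 30278. Selenite replicate 2 was the low library in the first pair and selenite replicate 1 in the last. Between 1 and 12 of the 20145 genes per library lay apart in this way on the low or the high side.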
